A study of Mus musculus with 14 samples.

Results

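The genes described are the 37 members of a module for peroxisome proliferator-activated receptor alpha (PPARα), fatty acid oxidation and ketogenesis, followed in the duodenal mucosa of mice after a meal. A member was taken where the platform annotation gave its current or an older symbol on a probe set for 1 gene, and where there were several such probe sets the brightest one on average was used, whatever the comparison. Of the 37 members, 35 were measured in this way, out of 18193 genes on the array. Cyp4a10 was represented by a probe set shared with other genes, and no probe set was named for Ucp2, so neither has a value.

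RNA of 20 male C57BL6 mice was pooled for each of 7 conditions, and each pool was hybridized to 2 Affymetrix mouse genome arrays. The mice were 12 weeks old, had eaten a low-fat (LF) diet for 2 weeks and were fasted for 12 h. One pool was taken in that state (Fasting), and the others 30 min, 1 h or 3 h after mice began a LF meal (10% of energy as fat, 70% as carbohydrate, 20% as protein) or a high-fat (HF) meal (60%, 20% and 20%), which gives LF30min, LF1h, LF3h, HF30min, HF1h and HF3h. Both arrays of a pool hold the same RNA, so the errors and p-values below cover the array and not the mouse, and a difference between pools cannot be told apart from a difference between the sets of mice in them.

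Values are log2 intensities after Robust Multiarray Analysis, differences are log2 of the first pool over the second, and a member was called at a limma adjusted p under 0.05 over all 45037 probe sets. Arrays of a pool correlated at 0.9958 to 0.9971, and the median standard error (SE) of a difference was 0.11. The 15 measured markers of enterocytes, the absorptive cells of the villus, were all bright, with a summed linear intensity of 101000 to 105000 on the 14 arrays. In RNA from a mixed tissue, fewer cells of a type and less RNA per cell cannot be told apart.

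PPARα is a nuclear receptor that binds fatty acids and their derivatives and, as a partner of the retinoid X receptor, switches on genes for the uptake and breakdown of fatty acids. Long chains enter the mitochondrion through the carnitine shuttle and are shortened there in a spiral of 4 reactions, while very long and branched chains are first shortened in peroxisomes. Acyl-CoA thioesterases release the free acid from its coenzyme A ester, and in liver the surplus acetyl-CoA is made into ketone bodies. In the small intestine PPARα is known for responding to fat in the diet, and enterocytes both oxidize fatty acids and repack them into chylomicrons.

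The members split into a few that moved at 3 h and a majority that did not pass the test in any single comparison. Ppara itself fell about 2-fold 3 h after either meal. The thioesterases Acot1, Acot2 and Acot4, which lie side by side on chromosome 12, rose at HF3h and were higher there than at LF3h, Acot1 by 3.39-fold, Acot2 by 1.83-fold and Acot4 by 1.71-fold over Fasting. The carnitine shuttle genes Cpt1a and Slc25a20 were higher after the HF than the LF meal at 3 h, with values below Fasting after LF and above Fasting after HF. None of the 11 acyl-CoA dehydrogenases, later enzymes of the mitochondrial spiral and electron transfer proteins passed the test in a comparison at 3 h.

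Against Fasting, no member was called at LF30min (1 at an unadjusted p under 0.05), where 0.335% of all genes were higher and 0.066% lower. At LF1h 1 member was lower and none higher (1.18% of genes higher, 0.368% lower), and 2 members were lower and none higher at LF3h (3.13% and 2.28%). After the HF meal 1 member was higher at HF30min (0.759% higher, 0.363% lower), and none was called at HF1h (4 unadjusted; 0.649% and 0.357%). At HF3h 5 members were higher and 1 lower, or 14.3% and 2.86% of the 35, where 2.97% of genes were higher and 3.7% lower. Among the 7439 genes with a mean value of 6 or more, to which 33 of the 35 members belong, those shares were 5.79% and 7.47%. A variance that follows intensity added 4 lower members at LF3h, and 4 higher and 2 lower at HF3h. The share of all genes called in that fit was not counted.

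Between the meals, 3 members were higher at HF30min than at LF30min (0.297% of genes higher, 0.253% lower), which became 1 or 2 with any 1 array left out, and none was called at 1 h (4 unadjusted; 0.066% and 0.159%). At 3 h, 9 members were higher after HF and none lower, or 25.7% of the 35, where 1.19% of all genes were higher and 1.01% lower and 1.91% and 2.03% of the brighter genes. The median difference of the members at 3 h was 0.14, against 0.01 over all genes and -0.06 over the brighter ones. Without 1 array of LF3h or the first of HF3h the 9 fell to 4 or 5, and a variance that follows intensity added 3 higher (Cpt2, Creb3l3, Hsd17b4) and 2 lower (Ehhadh, Hadh). Any difference among the 7 pools was called for 9 of 35 members by the moderated F test, where 9.76% of all genes and 18.1% of the brighter ones were. It was called for 20 members with the variance that follows intensity and 17 with dim probe sets left out. Shares of all genes were counted in the reported fit only, so the counts under other settings cannot be set against them. A difference of 2-fold or more was called for Ppara and Acot1 at HF3h against Fasting and for Acot1 between the meals at 3 h. The comparisons with Fasting share its arrays, and those between meals share arrays with both, so their counts are not independent.

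**Figure D1:**
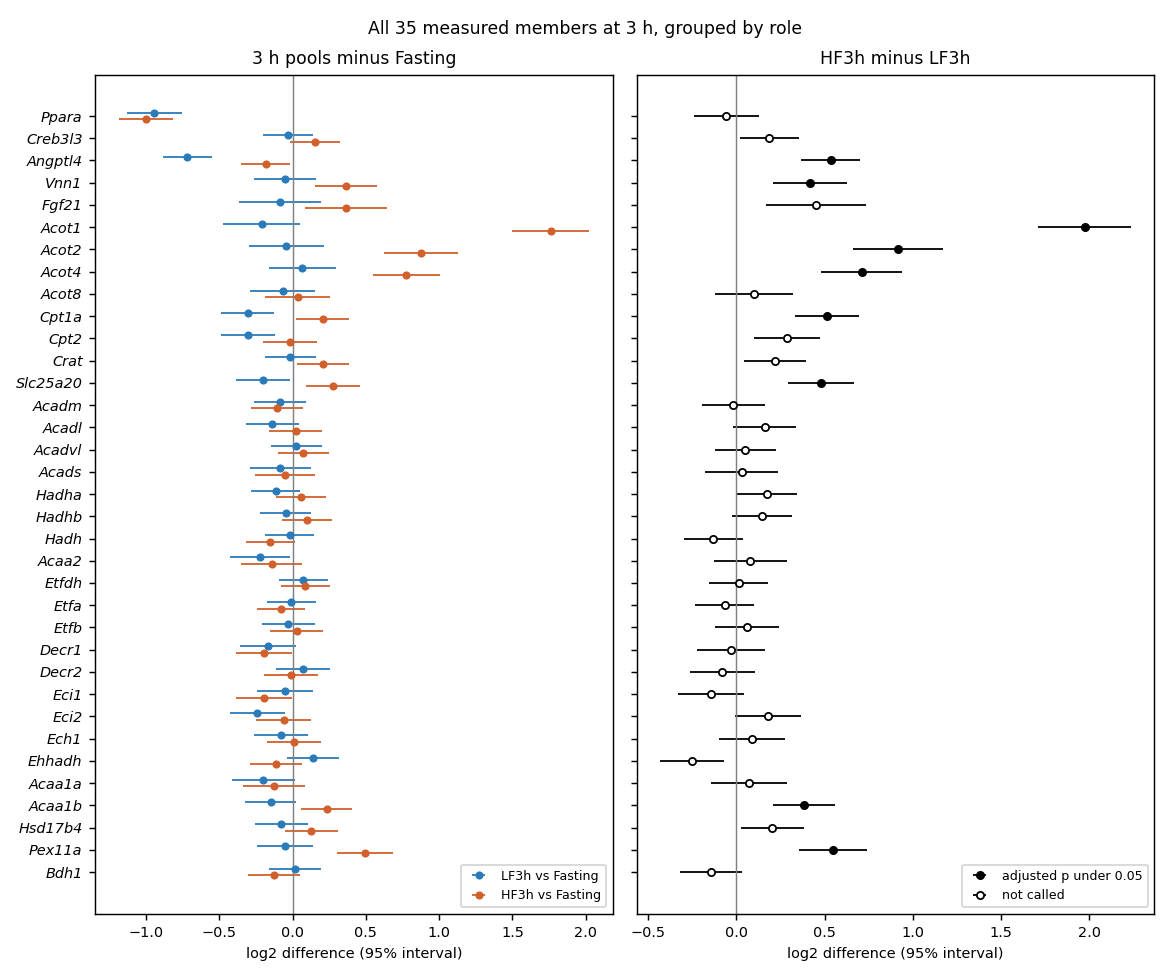
Log2 differences with 95% intervals for the 35 measured members, grouped by role from the regulators at the top to the ketone body step at the bottom; LF3h and HF3h minus Fasting on the left, and HF3h minus LF3h on the right with the 9 called members filled. Ppara lies near -1 after both meals, and Acot1 stands at 1.97 between the meals, while 25 of the 35 lie within 0.3 of 0 on the right.

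Ppara encodes the receptor. It read 9.23 and 9.09 on the Fasting arrays, 9.12 and 9.15 at LF30min, 9.10 and 9.02 at LF1h, and 8.17 and 8.28 at LF3h. After the HF meal it read 9.04 and 9.04 at 30 min, 8.84 and 8.88 at 1 h, and 8.22 and 8.11 at 3 h. The 4 arrays of the 3 h pools lay below the 10 others, and the arrays of LF3h and HF3h overlapped. Ppara fell by 0.94 at LF3h (SE 0.09, limma adjusted p = 3.13e-05) and by 1.00 at HF3h (SE 0.09, 8.8e-06), a 1.92-fold and a 2-fold drop. Its other probe sets fell by 0.91 and 0.91 at LF3h and by 1.01 and 1.14 at HF3h, all called. The meals differed by -0.06 at 3 h (95% interval -0.24 to 0.13). Both calls held under every alternative to the fit that was run, while a minimum of 2-fold would end the one at LF3h.

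Creb3l3, a membrane-bound transcription factor that works beside PPARα in liver fasting, ranged over its pool means by 0.19 and was not called. It was highest at HF3h, 0.19 above LF3h (limma adjusted p = 0.28).

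Acot1, a thioesterase, gave the largest difference of any member. Acot1 (cytosol), Acot2 (mitochondrion), Acot4 (peroxisome) and Acot8 (peroxisome) split acyl-CoA into free fatty acid and coenzyme A. Acot2, Acot1 and Acot4 are consecutive protein-coding genes on chromosome 12 in GRCm38.p6, followed by Acot3, Acot5 and Acot6. The 250 bases before each start are shown, since these 3 neighbours moved together. They are from RefSeq on GRCm38.p6, plus strand, 5′ to 3′; capitals mark a receptor-type repeat described further on.
Acot2, chr12:83987611-83987860: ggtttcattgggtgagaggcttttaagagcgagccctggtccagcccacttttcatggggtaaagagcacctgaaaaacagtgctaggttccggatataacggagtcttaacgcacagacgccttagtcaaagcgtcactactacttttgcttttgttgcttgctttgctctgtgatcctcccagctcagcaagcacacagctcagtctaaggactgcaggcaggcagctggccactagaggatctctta
Acot1, chr12:84009252-84009501: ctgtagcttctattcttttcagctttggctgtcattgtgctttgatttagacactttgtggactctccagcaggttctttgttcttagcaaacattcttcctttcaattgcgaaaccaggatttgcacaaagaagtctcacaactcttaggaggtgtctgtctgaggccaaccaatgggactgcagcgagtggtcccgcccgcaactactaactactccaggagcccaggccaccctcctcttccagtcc
Acot4, chr12:84038129-84038378: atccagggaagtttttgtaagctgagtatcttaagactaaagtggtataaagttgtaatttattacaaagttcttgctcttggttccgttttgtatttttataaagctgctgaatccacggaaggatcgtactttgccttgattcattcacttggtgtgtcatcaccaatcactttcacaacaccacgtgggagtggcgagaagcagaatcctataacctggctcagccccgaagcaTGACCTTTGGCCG

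Acot1 was dim in every pool but one. It read 4.42 and 4.60 on the Fasting arrays, 4.31 and 4.39 at LF30min, 4.61 and 4.30 at LF1h, and 4.31 and 4.30 at LF3h. After the HF meal it read 4.87 and 5.19 at 30 min, 4.57 and 4.48 at 1 h, and 6.28 and 6.27 at 3 h. Both HF3h arrays lay above all 12 others, and the HF30min arrays lay above the 10 that remained. Acot1 was 1.76 higher at HF3h than Fasting (SE 0.12, limma adjusted p = 1.23e-06) and 1.97 higher than LF3h (SE 0.12, 4.94e-07), or 3.93-fold. Its 0.68 between the meals at 30 min (adjusted p = 0.0245) lost its call without either LF30min array or the second HF30min array. Values under 6 lie in the dim range of these arrays, where fold differences are understated.

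Acot2 read 7.75 and 7.62 at Fasting, 7.72 and 7.48 at LF30min, 7.70 and 7.78 at LF1h, and 7.61 and 7.68 at LF3h. The HF pools gave 7.86 and 7.94, then 7.83 and 7.83, then 8.74 and 8.38. The HF3h arrays were again the highest of the 14, although they differed from each other more than those of any other pool. The rise was 0.88 over Fasting (SE 0.12, limma adjusted p = 5.04e-04) and 0.92 over LF3h (8.21e-04). A second, dim probe set of Acot2 gave 0.29 and 0.25, not called.

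Acot4 read 6.43 and 6.35 at Fasting, 6.38 and 6.21, 6.27 and 6.45, and 6.56 and 6.35 at the 3 LF times, and 6.13 and 6.29, 6.31 and 6.39, and 7.11 and 7.22 at the 3 HF times. Only the HF3h arrays lay above 7. It was 0.78 above Fasting (SE 0.11, limma adjusted p = 5.76e-04) and 0.71 above LF3h (0.00314), and its second probe set was 0.52 above Fasting (0.0078) and 0.40 above LF3h (0.0658). The call against LF3h was lost without the second LF3h array (0.0656). Acot8 ranged by 0.25 over the pools and was not called. A further probe set is assigned to both Acot1 and Acot2, so part of the signal of these close relatives may be shared.

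The other thioesterase genes, none of them a member, were not called at 3 h. Acot3, Acot5 and Acot6, the next genes along the chromosome, were 0.08, -0.08 and 0.08 from Fasting at HF3h, all with mean values under 6. Acot12 and Acot13, which lie elsewhere, were -0.16 and -0.23.

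**Figure D2:**
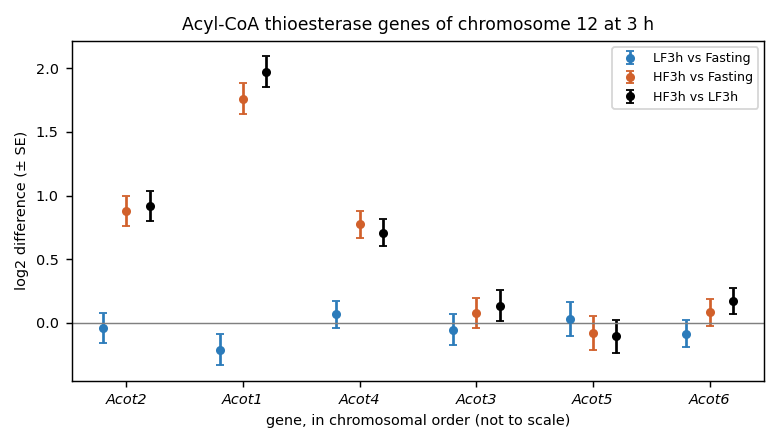
Log2 differences (points, with SE as bars) for 6 neighbouring thioesterase genes in chromosomal order, for LF3h and HF3h against Fasting and HF3h against LF3h. Acot2, Acot1 and Acot4 stand between 0.71 and 1.97 in both HF comparisons, while Acot3, Acot5 and Acot6 lie within 0.17 of 0.

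The carnitine shuttle carries long-chain fatty acids across the inner mitochondrial membrane. Cpt1a, its rate-limiting outer enzyme, read 9.02 and 8.97 at Fasting, 9.06 and 9.03 at LF30min, 8.90 and 8.89 at LF1h, and 8.64 and 8.73 at LF3h. Its values after HF were 9.09 and 9.14 at 30 min, 8.946 and 9.001 at 1 h, and 9.28 and 9.11 at 3 h. The LF3h arrays were the lowest of the 14, below those of LF1h. Neither step from Fasting was called, -0.31 at LF3h (limma adjusted p = 0.0561) and 0.21 at HF3h (0.219). With a variance that follows intensity (0.00219 and 0.049) or dim probe sets left out (0.00489 and 0.0365) both were, and with quantile normalization the first was (0.0257). In the fit reported LF3h and HF3h differed by 0.51 (SE 0.09, 0.00664), or 1.43-fold. Its 2 further probe sets gave 0.44 (0.0215) and 0.37 (0.147).

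Slc25a20, the carnitine-acylcarnitine carrier, followed the same order, with -0.20 at LF3h, 0.28 at HF3h and 0.48 between the meals (SE 0.09, limma adjusted p = 0.0128), and 0.47 on its second probe set. Cpt2, the inner enzyme, was 0.30 below Fasting at LF3h (adjusted p = 0.0639) and 0.29 higher after HF than LF (0.124). Crat, carnitine acetyltransferase, was 0.22 higher after HF than LF (0.218). Of the 4 shuttle genes 2 were called higher at HF3h than LF3h, where 1.19% of all genes were. All 4 had both HF3h arrays above both LF3h arrays. Among all 35 members 23 did, and 6 had both below. The share of all genes with such a separation was not counted. The calls of Cpt1a and Slc25a20 between the meals were lost without the first LF3h array, without the first HF3h array and in a fit of the 4 arrays alone, and that of Slc25a20 also without the second LF3h array (adjusted p up to 0.1 and 0.142).

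The spiral itself moved little. The acyl-CoA dehydrogenases Acadm, Acadl, Acadvl and Acads take the first step for medium, long, very long and short chains. Hadha, Hadhb, Hadh and Acaa2 carry out the later steps, and Etfa, Etfb and Etfdh pass the electrons on to the respiratory chain. Over these 11 genes the HF3h to LF3h difference ran from -0.13 (Hadh) to 0.17 (Hadha), with a median of 0.05. None was called in that comparison or in either 3 h comparison with Fasting, and 1, 1 and 0 had an unadjusted p under 0.05 for HF3h against LF3h, LF3h and HF3h against Fasting. Their 95% intervals for HF3h against LF3h lay between -0.30 and 0.34, so a 2-fold difference lay outside each of them. Etfb had the smallest range of pool means of all members, 0.07, followed by Acadvl at 0.07.

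With a variance that follows intensity, Hadh was called lower at HF3h than Fasting (-0.15, adjusted p = 0.00173) and than LF3h (-0.13, 0.0141), and Acaa2 lower at LF3h than Fasting (-0.22, 0.0244). Hadh read 13.36 to 13.56 over the pools, on a probe set of a type that can cross-hybridize.

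The auxiliary enzymes prepare unsaturated chains for the spiral. Decr1 and Eci1 of the mitochondrion, Decr2 of the peroxisome, and Eci2 and Ech1, found in both, were not called. They differed by -0.14 to 0.18 between HF3h and LF3h, with a median of -0.03. Eci2 was the most variable of them, with a range of 0.42 and its lowest value at LF3h.

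Of the peroxisomal members other than the thioesterases, Pex11a rose the most at HF3h. It encodes a membrane protein that drives the growth and division of peroxisomes. Pex11a read 8.96 and 8.91 at Fasting, 8.86 and 8.89, 9.02 and 8.94, and 8.80 and 8.97 at the 3 LF times, and 8.97 and 8.88, 8.82 and 8.96, and 9.42 and 9.45 at the 3 HF times. Both HF3h arrays lay above the 12 others, which covered 8.80 to 9.02. It rose by 0.50 over Fasting (SE 0.09, limma adjusted p = 0.00422) and was 0.55 above LF3h (0.00572), and a second probe set gave 0.59 (0.00501) and 0.51 (0.0321). The difference from LF3h was lost without the first LF3h array or either HF3h array, with an adjusted p of at most 0.0739.

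Among the enzymes of the peroxisomal spiral, Acaa1b, a thiolase, was 0.38 higher at HF3h than LF3h (SE 0.08, limma adjusted p = 0.0317), with values of -0.15 and 0.23 from Fasting that were not called. Its call was lost in 10 of 23 alternatives. The sister thiolase Acaa1a gave 0.07 on a probe set of a type that can cross-hybridize, and 2 probe sets are assigned to both genes. Ehhadh, the bifunctional enzyme of straight chains, was the member with the lowest HF3h to LF3h difference, -0.25 (0.163). Hsd17b4, the bifunctional enzyme that also serves branched chains and bile acid precursors, gave 0.20 (0.267).

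**Figure D3:**
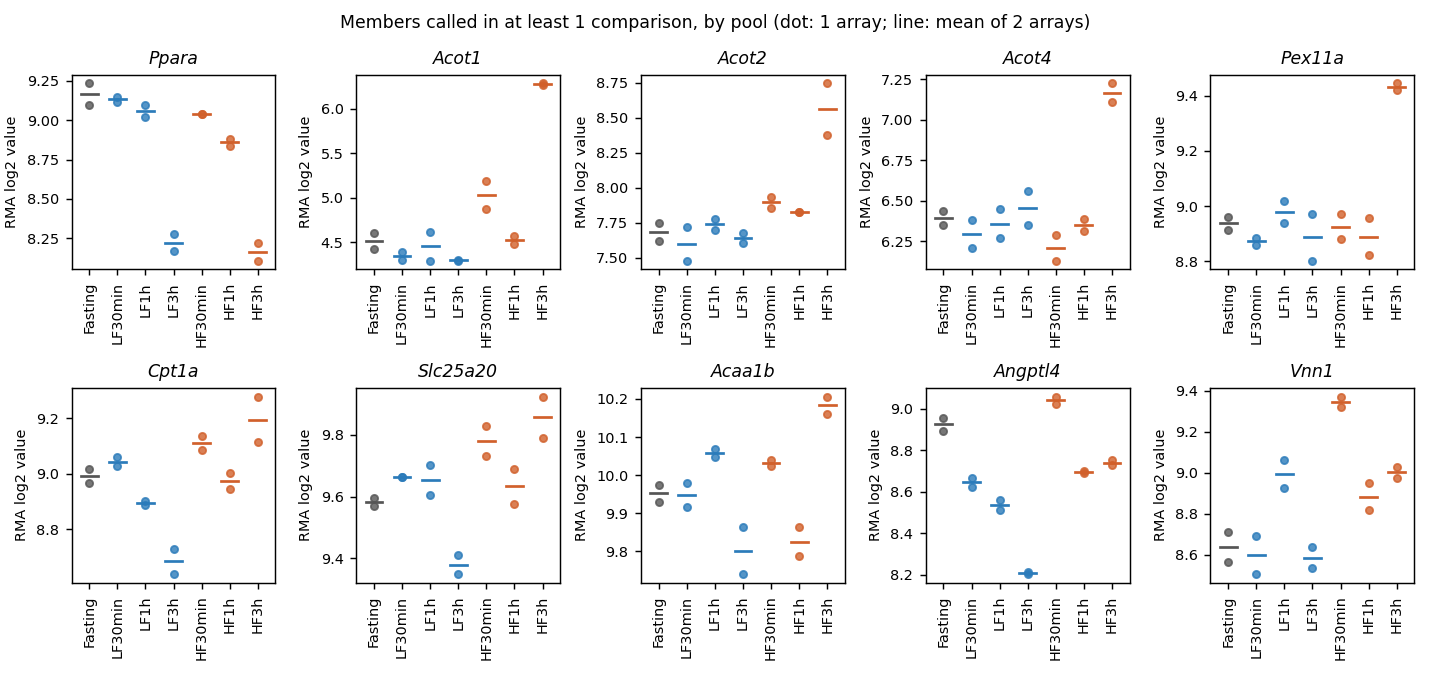
RMA log2 values of the 10 members called in at least 1 comparison, by pool; dots show single arrays and lines the pool means, with a separate vertical axis per gene that does not start at 0. Ppara is low in both 3 h pools, the 3 thioesterases and Pex11a are high at HF3h, Angptl4 is lowest at LF3h, and Vnn1 is highest at HF30min.

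The 16 mitochondrial members of the spiral and its shuttle were set against the 8 peroxisomal members. The groups are not alike: the 8 include Acot4, Acot8 and Pex11a, which are not enzymes of the spiral. Acot2 and Bdh1, mitochondrial members outside the spiral, were left out of the 16. At HF3h against Fasting none of the 16 and 2 of the 8 (Acot4, Pex11a) were called higher, with medians of 0.00 and 0.08, where 2.97% of all genes and 5.79% of the brighter ones were higher. Between HF3h and LF3h 2 of the 16 (Cpt1a, Slc25a20) and 3 of the 8 (Acot4, Acaa1b, Pex11a) were higher, with medians of 0.05 and 0.15, where 1.19% and 1.91% were. At LF3h no gene of either group was called, with medians of -0.09 and -0.06. The medians of all genes were -0.02 at LF3h, 0.00 at HF3h and 0.01 between the meals.

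The mitochondrial median minus the peroxisomal median was -0.08 at HF3h, -0.10 for HF3h against LF3h and -0.03 at LF3h, where the pooled SD of this quantity between arrays of a pool was 0.03. On the HF3h arrays the mitochondrial median was -0.02 and -0.02 from Fasting and the peroxisomal median 0.12 and 0.06. The 4 enzymes of the peroxisomal spiral alone had a median of 0.01 at HF3h against Fasting, and the 16 mitochondrial members 0.00. For HF3h against LF3h these medians were 0.14 and 0.05. The gap between the full groups at HF3h was larger than the spread between arrays. It was -0.03 with the 3 members found in both organelles counted as peroxisomal, -0.12 with plain probe sets, -0.14 without the second HF3h array and -0.18 with means in place of medians. At the earlier times it ran from -0.02 to 0.05 against Fasting. At HF3h 5 of the 8 peroxisomal members had a mean above Fasting, and 8 of the 16 mitochondrial ones. Of all 18193 genes 8982 did, and of the 7439 brighter ones 3134.

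**Figure D4:**
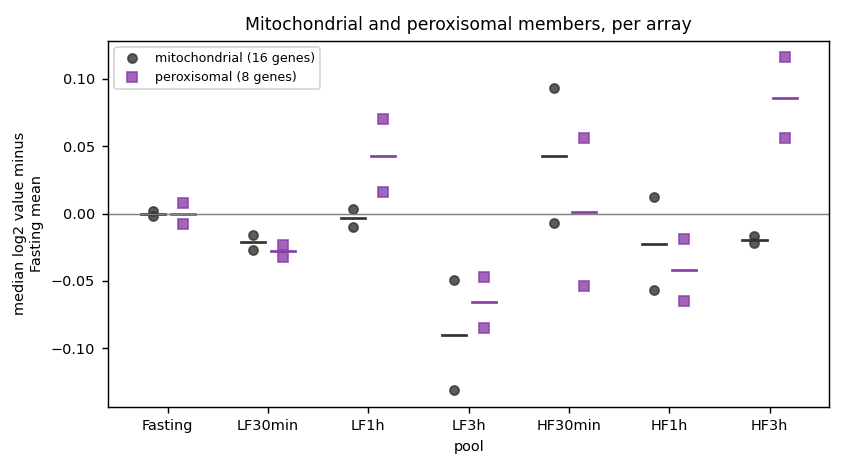
Median log2 value of the 16 mitochondrial (circles) and 8 peroxisomal (squares) members on each array, minus the Fasting mean, by pool; lines are means of 2 arrays. The groups part at HF3h, where the peroxisomal squares are at 0.12 and 0.06 and both mitochondrial circles at -0.02.

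Ketogenesis was represented by Bdh1, which converts acetoacetate and 3-hydroxybutyrate into each other. It ranged by 0.27 over the pools, from 8.84 at HF3h to 9.11 at LF1h, and was not called. Fgf21, a hormone of the fasted liver, was below 6 in every pool, and its highest values, 4.84 and 4.93 at HF3h, were 0.45 above LF3h (limma adjusted p = 0.11).

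Angptl4, a secreted inhibitor of lipoprotein lipase, fell furthest after the LF meal. It read 8.96 and 8.89 at Fasting, 8.62 and 8.67 at LF30min, 8.56 and 8.51 at LF1h, and 8.20 and 8.21 at LF3h. After the HF meal it read 9.06 and 9.02 at 30 min, 8.70 and 8.69 at 1 h, and 8.75 and 8.73 at 3 h. The LF3h arrays were the lowest and the HF30min arrays the highest of the 14. Against Fasting, HF1h at -0.231 (limma adjusted p = 0.232) and HF3h at -0.185 (0.22) were not called. With dim probe sets left out both were (0.0242 and 0.0262), and with a variance that follows intensity HF1h was (0.0489). Angptl4 fell by 0.39 at LF1h (SE 0.08, limma adjusted p = 0.0196) and by 0.72 at LF3h (1.21e-04), and was higher after HF than LF by 0.40 at 30 min (0.0409) and 0.53 at 3 h (0.00223). Its probe set is of a type that can match related transcripts, and its other one, with a mean of 2.52, gave none of these calls. The calls at LF1h and at 30 min were lost in 7 and 19 of 23 alternatives, and that at LF1h without any 1 of its 4 arrays.

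Vnn1, a pantetheinase on the cell surface, was highest early after the HF meal. It read 8.57 and 8.71 at Fasting, 8.51 and 8.69 at LF30min, 9.06 and 8.92 at LF1h, and 8.54 and 8.64 at LF3h. With the HF meal it read 9.32 and 9.37 at 30 min, 8.95 and 8.82 at 1 h, and 9.03 and 8.98 at 3 h. The HF30min arrays lay above all others, 0.71 above Fasting (SE 0.10, limma adjusted p = 0.00192) and 0.75 above LF30min (0.00222), and the second probe set gave 0.71 (0.0152) and 0.77 (0.0133). At LF1h, 0.36 above Fasting, the probe set shown was not called (0.111) and the second was (0.56, 0.0447), and the first was too with a variance that follows intensity (0.00407) or dim probe sets left out (0.0167). Its smaller values at HF3h, 0.36 above Fasting (0.0453) and 0.41 above LF3h (0.049), lost their calls in 11 and 16 of 23 alternatives. With the replicate number as a block they were at an adjusted p of 0.0596 and 0.0666.

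Together 10 of the 35 members were called in at least 1 of the 9 comparisons, where 10.8% of all genes and 20.1% of the brighter ones were. For the other 25, Fgf21 apart, the largest difference in either direction was 0.303.

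Other genes of the same pathways, from lists that hold no member, were counted in the same fit. Of 18 further genes of mitochondrial fatty acid oxidation none was called between HF3h and LF3h (2 unadjusted; median 0.00), and 1 was called against Fasting at 3 h, the carnitine transporter Slc22a5, lower by 0.42 at LF3h (limma adjusted p = 0.0125). Of 31 further genes of peroxisomes none was called between the meals (2 unadjusted; median 0.02), and the import receptor Pex5 was 0.45 higher at LF3h than Fasting (0.016). Of 5 further ketone body genes none was called between the meals (3 unadjusted; median -0.14). The transporters Slc16a1 and Slc16a6 rose after both, Slc16a1 by 0.92 at LF3h and 0.62 at HF3h and Slc16a6 by 0.46 and 0.73.

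Of 17 PPAR receptors, partners and coregulators, 1 was called between HF3h and LF3h, the coactivator Ppargc1a, at 8.97 and 9.45, a difference of -0.48 (limma adjusted p = 0.00927). Ppard, the delta receptor, was 0.59 lower at HF30min than Fasting (0.0305). The 37 known PPARα targets outside oxidation included 14 with a mean under 6. Of the 37, 11 were higher and 1 lower at HF3h than Fasting (median 0.14), where 2.97% of all genes were higher and 3.7% lower. Against LF3h, 7 were higher and 2 lower at HF3h (median 0.14), where 1.19% and 1.01% of all genes were. The largest were Pdk4, which holds back pyruvate oxidation, at 9.26 and 7.40 (1.87 higher, 2.2e-08), the desaturase Scd1 (1.43) and the lipase inhibitor G0s2 (1.34). Scd1 was under 6 at LF3h (5.74) and G0s2 in both pools (5.71 and 4.37). Scd1 went the other way at 1 h, with -1.66 between HF1h and LF1h (limma adjusted p = 2.26e-06). At 30 min it was 0.67 higher after HF than LF (0.00551). Pdk4 was 2.27 below Fasting at LF3h, while Cd36, a fatty acid translocase, was 0.78 higher at HF30min than LF30min (0.00444).

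Markers of neighbouring tissues differed at HF3h too, and in other pools. Between HF3h and LF3h 1.19% of all genes were higher and 1.01% lower. Of 8 measured adipocyte markers, 7 of them with a mean under 6, 3 were higher at HF3h than LF3h and none lower (Adipoq by 1.20). Their summed linear intensity was 392 to 427 at HF3h, 373 to 385 at LF1h and 341 to 370 at HF30min. Acot1 was at 6.275, 4.46 and 5.03 in these pools. At HF1h, Fasting, LF30min and LF3h the sums were 319 to 323, 293 to 299, 292 to 301 and 285 to 288. Acot1 was there at 4.53, 4.51, 4.35 and 4.30. Scd1, a target named above, was at 7.17 at HF3h, 7.47 at LF1h and 6.69 at HF30min. At HF1h, Fasting, LF30min and LF3h Scd1 was at 5.81, 6.21, 6.02 and 5.74. Of 14 pancreatic acinar markers 13 were higher at HF3h than LF3h (median 0.88), with sums of 120000 at HF3h, 64400 to 65500 at LF3h and 77600 at Fasting. These sums were 124000 at LF1h and 111000 to 112000 at HF1h, and 44500 to 44900 at HF30min. Against Fasting 13 of the 14 were also higher at LF1h and 12 at HF1h, and 13 were lower at HF30min.

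Of 12 stomach and Brunner gland markers 5 were higher at HF3h than LF3h, and all 12 were higher at HF30min than Fasting (median 2.04), the pool where Vnn1 peaked. Their sums were 14700 to 14800 at HF30min and 11700 at LF30min, where Vnn1 was at 8.60. Enterocyte markers, 15 measured, gave no call between HF3h and LF3h (3 unadjusted; median 0.02). Liver markers, 6 of 7 dim, smooth muscle markers and immune markers gave 1, 0 and 0 higher and 0, 0 and 2 lower. The part of these cells in the differences of the members and of Scd1 was not tested.

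The promoters were searched for the repeat that PPARα and its partner bind, 2 copies of AGGTCA with 1 base between them, on both strands and from 250 bases before to 50 after each start. A RefSeq promoter was read for 29 members. With at most 2 of the 12 letters different, 4 of the 29 members (13.8%) held such a repeat, and 4.4% of 27025 genes did. With at most 3 it was 9 of 29 (31%) and 27.3%, and the single AGGTCA was in 17.2% and 18.1%. The 4 repeats follow with 8 bases on each side, the repeat in capitals, on the strand of the gene.
Acot4, chr12:84038358-84038386, plus strand: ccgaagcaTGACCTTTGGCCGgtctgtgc
Slc25a20, chr9:108662134-108662162, plus strand: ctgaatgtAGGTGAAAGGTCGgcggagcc
Etfa, chr9:55512300-55512328, minus strand: gcacacccTTACCTTTGCCCTactcccaa
Creb3l3, chr10:81092780-81092808, minus strand: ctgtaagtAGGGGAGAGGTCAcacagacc

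In Acot4 and Etfa the repeat reads on the strand opposite the gene. Acot4 and Slc25a20 were called between HF3h and LF3h, and Etfa and Creb3l3 were not. Among the called members with a promoter read, 2 of 7 held the repeat, and Acot1 and Acot2, at 4 and 3 differing letters, did not. A match of letters is no measurement of binding, and these windows leave out more distant sites.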

How the data were processed

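The deposited values are log2 intensities of 14 arrays, which the authors background-corrected and normalized by Robust Multiarray Analysis (its version is not given in the sources used here); the log base was taken from that method. Of 45101 probe sets, 64 controls were set aside. The platform annotation named 1 gene for 34945 probe sets, several for 932 and none for 9160. Groups came from the labels, and 2 arrays per pool set the precision.

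The model, fitted with limma 3.58.1 in R 4.3.3, had a mean for each pool (7 residual and 6.4 prior degrees of freedom). There were 6 contrasts against Fasting, 3 between meals and a moderated F test, with Benjamini-Hochberg adjustment across the 45037 probe sets in each. The fit was tested on simulated data. Arrays with the same replicate number did not deviate together (21 pairs, r = -0.187 to 0.151). Per-array values are given for Ppara and for members called with a difference of at least 0.5. A log2 value under 6 was treated as dim. Members, compartments and lists were chosen with earlier results of these data known, so their counts are a description. Alternatives changed the filter, fold, variance model, arrays fitted, normalization, probe set per gene, replicate block, compartment lists and arrays left out. Promoter sequences are from RefSeq, GRCm38.p6. Python 3.11.15 with matplotlib 3.10.9 drew the figures.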

Additional observations from a re-analysis of the deposited data

Results flagged for a closer look

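Of the members, 12 differences between the meals at the same time passed the test, which compares 2 pools on 2 arrays each and leaves out the spread between mice. At 30 min they were Vnn1 (0.745), Acot1 (0.68) and Angptl4 (0.397). At 3 h they were Acot1 (1.974), Acot2 (0.917), Acot4 (0.709), Pex11a (0.548), Angptl4 (0.533), Cpt1a (0.512), Slc25a20 (0.478), Vnn1 (0.414) and Acaa1b (0.381), all log2 values with HF higher. The calls of Angptl4 at 30 min and of Vnn1 at 3 h were lost in 19 and 16 of 23 alternatives.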

How the results depend on the processing

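Of 247 recomputed counts of called members, 206 stayed within 1.5 times the reported count, and of 198 recomputed gaps between the mitochondrial and peroxisomal medians, 173 moved by less than the spread between arrays. With a variance that follows intensity, the counts were 1 at LF30min, 2 at LF1h, 6 at LF3h, 2 at HF30min, 3 at HF1h and 12 at HF3h against Fasting, 1 and 14 between the meals at 1 h and 3 h, and 20 by the F test. With dim probe sets left out they were 1, 2, 6, 2 and 10 at LF30min, LF1h, LF3h, HF1h and HF3h, and 17 by the F test. Shares of all genes were not counted under these alternatives. At 1.5-fold or more there were 0 at LF1h and 3 between the meals at 3 h. At 2-fold or more there were 0 at LF1h, LF3h, HF30min and between the meals at 30 min, 2 at HF3h and 1 between the meals at 3 h. In fits of the 4 arrays compared there were 0 at LF1h, and 0 and 4 between the meals at 30 min and 3 h. Quantile normalization gave 4 at LF3h, and plain probe sets 0 at LF1h and 1 at LF3h.

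Leaving out 1 array gave 0 to 1 at LF1h, 1 to 2 at HF30min, 1 to 2 between the meals at 30 min and 4 to 9 at 3 h. The second array of LF1h, left out, or the first gave 2 at HF30min. HF30min against LF30min gave 1 without either LF30min array or the second HF30min array. The mitochondrial minus peroxisomal gap then ran from -0.067 to -0.016 at LF1h, 0.018 to 0.063 at HF30min, 0.008 to 0.059 at HF1h, -0.138 to -0.057 at HF3h, and between the meals from -0.013 to 0.023, 0.011 to 0.1 and -0.132 to -0.072 at 30 min, 1 h and 3 h. Means of a gene's probe sets gave a gap of 0.021 at LF30min, -0.094 at LF3h, -0.036 at HF30min and -0.12 at HF3h. Means in place of medians gave -0.045 at LF1h, -0.072 at LF3h and -0.183 at HF3h. Plain probe sets gave -0.124 at HF3h and 0.101 and -0.162 between the meals at 1 h and 3 h. With members of both organelles counted as peroxisomal it was -0.032 at HF3h and -0.125 between the meals at 3 h.

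Of 503 recomputed member calls 421 held, 81 lost the threshold and 1 reversed, Angptl4 at LF1h on its dim plain probe set (0.148). The calls of Ppara at LF3h and HF3h, of Acot1 and Acot2 at HF3h against Fasting and LF3h, of Acot4 and Pex11a at HF3h against Fasting and of Vnn1 at HF30min against Fasting held under every alternative to the fit that was run. These calls carry no minimum fold: at 2-fold or more those of Ppara at HF3h and of Acot1 would be kept, and at 1.5-fold or more that of Pex11a alone would be lost. With the replicate number as a block, which pairs no samples here, no count moved by over 1.5 times, and 3 calls were lost, Vnn1 at HF3h (adjusted p = 0.0596) and between the meals at 3 h (0.0666) and Angptl4 between the meals at 30 min (0.0649). The cause of these shifts was not tested. With 1 pool of mice a condition, no value covers the spread between mice, and signal near background limits Acot1 and Fgf21.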
